A study of Mus musculus with 5 samples.

Results

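Haptoglobin (Hp), lipocalin 2 (Lcn2), serum amyloid A3 (Saa3), Serpina3n, lipopolysaccharide-binding protein (Lbp) and pentraxin 3 (Ptx3) are 6 secreted acute-phase and innate defence proteins, and their mRNA was followed here in regenerating mouse muscle. They are 6 of the 18132 genes listed in the count tables. They were chosen by name, for the levels they had shown in these same libraries, so the levels, ratios and ranks below are descriptions and carry no test. Acute-phase proteins are best known as liver products that pour into blood within hours of tissue damage, under the control of interleukin 6 and interleukin 1. Several of them are also made locally by fibroblasts, endothelial cells or neutrophils, and the question here was which cells of the muscle carried their mRNA and when.

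The study sampled the tibialis anterior of C57Bl/6 mice by droplet sequencing of single live cells, with counts of unique molecular identifiers (UMIs), which tag single mRNA molecules. There was 1 count matrix per day: uninjured muscle (day 0, female, 4 months), and muscle taken after notexin, a snake venom phospholipase that destroys muscle fibres, at day 2 (female, 7 months), day 5 (female, 4 months) and day 7 (male, 4 months). The day 0 matrix joined a pair of sequencing runs with nothing to separate their cells. With 1 library per day nothing between days could be tested, and the day cannot be told apart from the age at day 2 or the sex at day 7. The number of animals behind each library was not given in the sources used here.

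Fibro-adipogenic progenitors (FAPs) are the Pdgfra-positive connective tissue cells that lie between muscle fibres, and they secrete matrix and cytokines after injury. The authors' cell labels held 3516 FAPs at day 0, 667 at day 2 and 828 at day 5. At day 7 they split into 352 cells called activated FAPs and 1537 called FAPs. Levels are given as UMIs of the gene per 1000000 UMIs of all cells under a label (cpm), with exact 95% Poisson intervals, which cover counting error only. A gene was called higher or lower between groups when its cpm differed at least 2-fold and the groups together held at least 20 of its UMIs. The median cell under these labels held 4452, 12321 and 2785 UMIs in the FAPs of days 0, 2 and 5, and 5056 in activated FAPs against 7669 in FAPs at day 7. Libraries held 5986701 to 57723171 UMIs, and pairs of libraries shared 9 to 40 cell barcodes, each under 1% of either library.

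The FAP labels carried FAP markers at every day. The 6 FAP markers (Pdgfra, Dcn, Col3a1, Col1a1, Ly6a, Gsn) summed to 72946, 23150 and 43116 cpm in FAPs of days 0, 2 and 5, and to 53414 cpm in activated FAPs against 53618 cpm in FAPs at day 7. The 6 macrophage markers summed to 47.0, 2259 and 207.8 cpm at days 0, 2 and 5, and to 1170 and 1056 cpm in the activated FAPs and the FAPs of day 7. The 8 neutrophil markers stayed between 3.79 cpm in activated FAPs, where 5 of them were at 0, and 28.4 cpm in FAPs of day 7. The liver markers Alb, Ttr and Serpina1c were at 0 in every FAP label, and the 5 hepatocyte markers together reached at most 5.49 cpm. Some other labels did not match their markers. The 4 B cell markers summed to 1.83 cpm under the day 2 label "B cells" and were at 0 under that of day 5, where dendritic cell markers summed to 277 and 377 cpm and macrophage markers to 2744 and 195 cpm. The label "Platelets" of day 0 carried 30899 cpm of endothelial markers.

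In the GENCODE vM21 annotation of GRCm38, which is the mm10 build the submitters name, Lcn2 (chr2:32384633-32388252, minus strand) and Lbp (chr2:158306493-158332852, plus strand) lie on chromosome 2. Ptx3 is at chr3:66219910-66225805 on the plus strand, and Saa3 at chr7:46711998-46715700 on the minus strand. Hp is at chr8:109575128-109579172 on the minus strand, and Serpina3n at chr12:104406729-104414329 on the plus strand. All 6 are protein-coding. Since these libraries read mRNA 3' ends, the last 500 bases of each gene's coding transcripts were compared with all other annotated transcripts. No 50-base stretch was shared with another gene for Hp, Lcn2, Serpina3n or Ptx3. For Lbp 9 of 1289 stretches were shared, and for Saa3 65 of 902, of which 9 also occur in Saa1, so a small part of the Saa3 counts could have been assigned differently.

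Promoter windows from RefSeq (GRCm38.p6) matched 4 of the 6 genes, and they are shown because these genes were high together in 1 FAP label. Each window runs 5' to 3' on the gene's strand, from 250 bases before its start of transcription to 30 after it. The windows are chr2:32387710-32387989 for Lcn2, chr7:46715647-46715926 for Saa3, chr12:104406458-104406737 for Serpina3n and chr3:66219637-66219916 for Ptx3. Capitals mark matches on either strand to a C/EBP-like motif (TTNNGCAA) or an NF-kB-like motif (GGGNNNNNCC), and a STAT-like motif (TTCNNNGAA) was also searched.
Lcn2: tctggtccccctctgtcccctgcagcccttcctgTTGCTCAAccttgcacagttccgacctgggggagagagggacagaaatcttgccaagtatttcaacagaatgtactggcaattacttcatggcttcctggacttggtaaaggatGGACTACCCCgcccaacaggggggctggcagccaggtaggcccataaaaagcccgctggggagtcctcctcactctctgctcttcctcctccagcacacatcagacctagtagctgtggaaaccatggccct
Saa3: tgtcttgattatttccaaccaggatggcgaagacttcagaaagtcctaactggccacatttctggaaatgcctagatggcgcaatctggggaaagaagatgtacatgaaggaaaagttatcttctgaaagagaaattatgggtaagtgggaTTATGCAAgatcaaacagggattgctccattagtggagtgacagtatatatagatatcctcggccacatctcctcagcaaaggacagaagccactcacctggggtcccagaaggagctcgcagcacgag
Serpina3n: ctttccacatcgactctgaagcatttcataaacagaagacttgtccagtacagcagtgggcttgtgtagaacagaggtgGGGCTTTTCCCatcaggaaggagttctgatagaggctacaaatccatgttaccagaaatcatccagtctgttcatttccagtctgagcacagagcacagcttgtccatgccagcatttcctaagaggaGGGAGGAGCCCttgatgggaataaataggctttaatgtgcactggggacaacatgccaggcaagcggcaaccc
Ptx3: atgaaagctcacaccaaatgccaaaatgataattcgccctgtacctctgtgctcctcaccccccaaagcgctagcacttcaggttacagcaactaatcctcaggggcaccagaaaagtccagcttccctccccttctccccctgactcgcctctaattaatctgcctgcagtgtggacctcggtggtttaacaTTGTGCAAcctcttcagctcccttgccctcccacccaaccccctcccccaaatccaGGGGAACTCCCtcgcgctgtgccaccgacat
The C/EBP-like letters occurred once each in the Lcn2 (bases 35 to 42), Saa3 (bases 152 to 159) and Ptx3 (bases 194 to 201) windows, and in 10.4% of the 32851 RefSeq windows of the same length. The NF-kB-like letters occurred in the Lcn2, Serpina3n and Ptx3 windows, and in 48.9% of all windows. In Serpina3n and Ptx3 the NF-kB-like matches of both strands overlapped, and no base was shared between the C/EBP-like and NF-kB-like matches. The STAT-like letters were in none of the 4 windows and in 7.83% of all windows. These are matches of letters, with no measurement of binding.

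Haptoglobin binds free haemoglobin and delivers it to the macrophage receptor CD163. In FAPs Hp stood at 0.490 cpm at day 0 (8 UMIs, each in a different cell), 122 cpm at day 2 (95% interval 115 to 129) and 17.5 cpm at day 5 (13.0 to 23.0). At day 7 it stood at 523 cpm (492 to 554) in activated FAPs and at 17.8 cpm (15.5 to 20.3) in FAPs. The day 2 FAPs and the activated FAPs were thus high and day 0 FAPs low, with day 5 and day 7 FAPs close together between them. On the log2 scale the cpm ratio to day 0 FAPs was 7.96 (6.98 to 9.18) at day 2, 5.16 at day 5, 10.06 (9.08 to 11.28) in activated FAPs and 5.18 in day 7 FAPs. Activated FAPs were 4.88 (4.67 to 5.09) above the FAPs of the same library on that scale.

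Lipocalin 2 binds bacterial siderophores and so withholds iron, and it is also a granule protein of neutrophils. Lcn2 stood at 0.612, 3.04 and 2.06 cpm in FAPs of days 0, 2 and 5, from 10, 28 and 6 UMIs. In activated FAPs it stood at 275 cpm (253 to 298), against 0.650 cpm (0.281 to 1.28) in FAPs of day 7. Activated FAPs were the only FAP label with more than 28 Lcn2 UMIs, with 580. The ratio of activated FAPs to FAPs at day 7 was 8.72 on the log2 scale (7.74 to 9.94), which ranked 1 among the 11924 genes compared. Of the 8 neutrophil markers, 5 (Retnlg, Ngp, Camp, Ltf and Mmp8) were at 0 in activated FAPs, and the 8 summed to 3.79 cpm. Ltf was at 0 in the immune cells of day 0 as well. A neutrophil source of Lcn2 in this label was not tested.

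Serum amyloid A3 is the form of serum amyloid A that mice make mainly outside the liver. For Saa3, FAPs had 0.184 cpm at day 0 (3 UMIs, all in 1 cell), 31.4 cpm at day 2 (27.9 to 35.2) and 19.2 cpm at day 5 (14.5 to 24.9). At day 7 there were 221 cpm (201 to 242) in activated FAPs and 14.2 cpm (12.2 to 16.5) in FAPs. The activated FAPs were again highest and the day 0 FAPs lowest. The log2 ratio to day 0 FAPs was 7.42 (5.86 to 9.70) at day 2 and 10.23 (8.68 to 12.52) in activated FAPs, wide intervals that reflect the 3 UMIs of day 0. The 5 cells with the most Saa3 held 94.6% of its UMIs in day 5 FAPs and 61.7% in activated FAPs, against 77.1% in day 7 FAPs. When the 1% of cells with the most Saa3 UMIs were left out of each label, 6 Saa3 UMIs remained in day 7 FAPs and day 0 FAPs together, too few for a call, and the log2 ratio of activated FAPs to FAPs at day 7 was then 7.70 in place of 3.96 (3.71 to 4.22). The levels at days 5 and 7 outside the activated label thus rest on a few cells.

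Serpina3n inhibits serine proteases, granzyme B among them. Serpina3n stood at 13.3 cpm (11.6 to 15.2) in FAPs of day 0, 231 cpm (221 to 241) at day 2 and 67.9 cpm (58.8 to 78.0) at day 5. At day 7 it stood at 827 cpm (789 to 867) in activated FAPs and at 41.4 cpm (37.9 to 45.2) in FAPs. All 4 later groups were above day 0, and no interval overlapped another. The log2 ratio to day 0 FAPs was 4.11 at day 2, 2.35 at day 5, 5.95 (5.75 to 6.16) in activated FAPs and 1.63 in day 7 FAPs.

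Lbp and Ptx3 differed from the other members in being well expressed before injury. LBP carries bacterial lipopolysaccharide to CD14 and TLR4. Lbp stood at 350.0 cpm (341 to 359) in FAPs of day 0, 169.9 cpm (162 to 179) at day 2 and 271 cpm (252 to 290.4) at day 5. At day 7 it stood at 1691 cpm (1636 to 1748) in activated FAPs, against 183 cpm (175 to 190.4) in FAPs. Only activated FAPs were above day 0, with a log2 ratio of 2.27 (2.21 to 2.33). The FAPs of days 2, 5 and 7 were below it, with -1.04, -0.37 and -0.94.

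Pentraxin 3 is a soluble pattern recognition molecule that binds complement C1q and the hyaluronan-binding protein TSG-6, the product of Tnfaip6. Ptx3 stood at 355 cpm (346 to 364) in FAPs of day 0, 226 cpm (216 to 236) at day 2 and 247 cpm (229 to 265) at day 5. At day 7 it stood at 572 cpm (540.0 to 605) in activated FAPs, against 38.7 cpm (35.3 to 42.3) in FAPs. Activated FAPs had the highest level and the FAPs of the same library the lowest, with a log2 ratio between them of 3.89 (3.73 to 4.04). Relative to day 0 the activated FAPs were 0.69 higher on the log2 scale, under 2-fold, and the day 7 FAPs were -3.20.

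**Figure D1:**
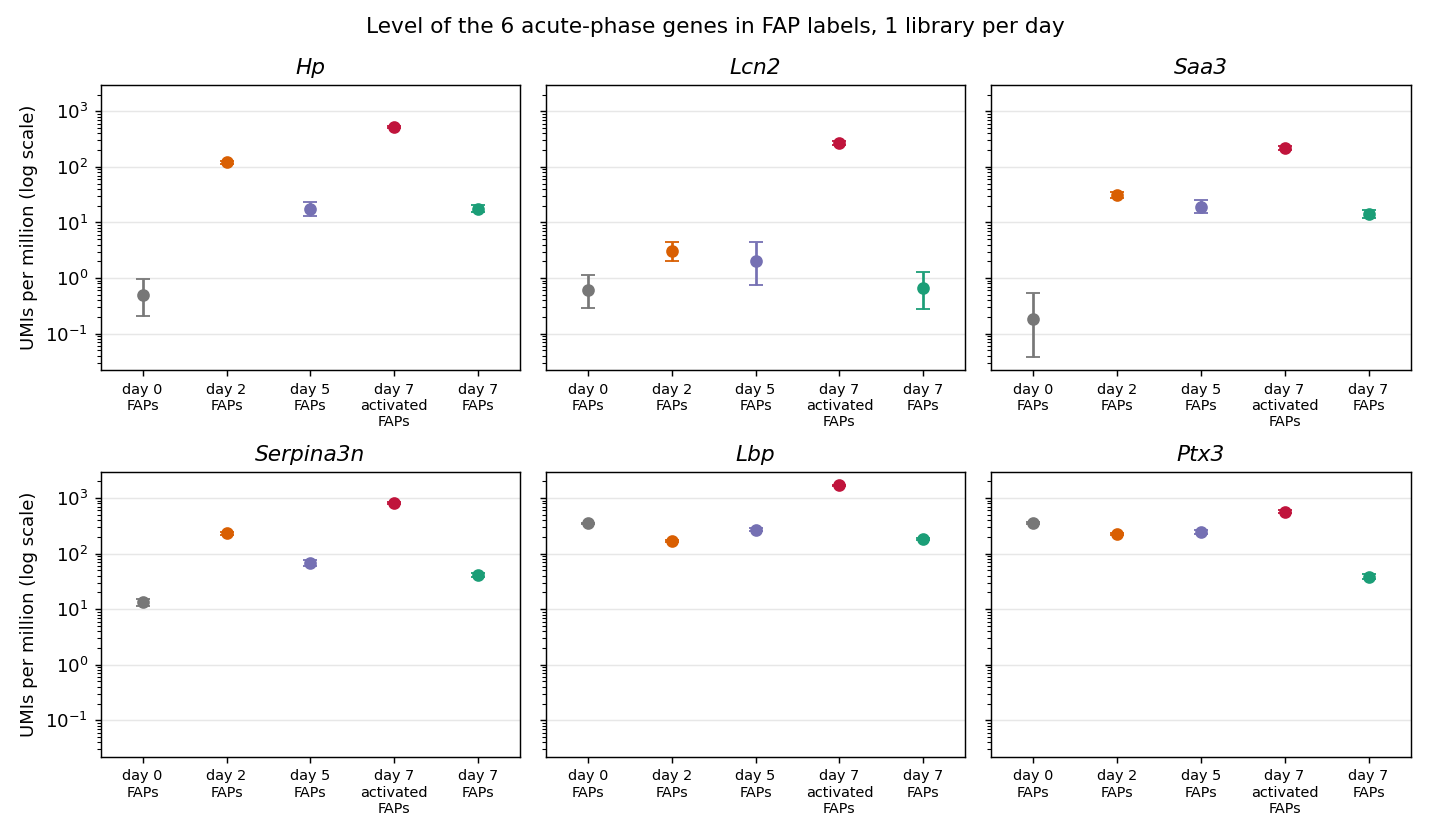
Level of the 6 genes in the FAP labels, in cpm on a log axis, with day 0, day 2 and day 5 FAPs followed by activated FAPs and FAPs of day 7. Points are 1 library each and bars are exact 95% Poisson intervals. Activated FAPs are highest in all 6 panels, and at day 0 Lbp and Ptx3 stand at 350.0 and 355 cpm and the other genes at 13.3 cpm or less.

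At day 2, 4 of the 6 genes were higher than at day 0 and 1 was lower, where 10.9% and 14.1% of 12995 genes were. At day 5, 3 of 5 genes with enough UMIs were higher and 0 were lower, where 10.2% and 10.3% of all genes were. In day 7 FAPs 3 of 5 were higher and 1 was lower, where 10.5% and 11.4% of all genes were. In activated FAPs 5 of 6 were higher than in day 0 FAPs and 0 were lower, where 5.14% and 15.1% of all genes were. Within day 7, activated FAPs were higher than FAPs for 6 of 6 genes, where 5.57% of 11924 genes were higher and 13.6% lower. The genes were chosen with these contrasts known, and cell labels commonly draw on the same expression values, so the counts are descriptions. The median log2 ratio of all genes was -0.17 at day 2, -0.01 at day 5, -0.29 in activated FAPs against day 0, -0.06 in day 7 FAPs and -0.21 within day 7. Relative to these medians Lbp at day 2 was -0.87 and no longer 2-fold lower, and the other calls stood.

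Macrophage markers were higher in FAPs after injury than at day 0, as given above. When the FAP cells with at least 0.5% of their UMIs from macrophage and neutrophil markers were left out (29 of 667 at day 2, and 11 of 352 activated FAPs against 42 of 1537 FAPs at day 7), the log2 ratio to day 0 was 7.92 for Hp at day 2 and 8.83 for Lcn2 in activated FAPs. The levels of Hp in macrophage labels were at most 9.32 cpm at day 2 and 10.1 cpm at day 7, below those of FAPs in the same libraries. FAP cells with a smaller share of these markers were kept, so RNA spread thinly over many cells was not removed. How much of the FAP counts of Hp, Lcn2 and the other genes followed here was RNA from macrophages or neutrophils was not tested.

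Few cells held most of the message. At day 7 the activated FAPs were 18.6% of FAP-labelled cells (16.9% to 20.5%, exact binomial) and 14.6% of their UMIs, and they held 98.6% of the FAP UMIs of Lcn2, 83.4% of Hp, 77.4% of Serpina3n, 72.7% of Saa3, 71.7% of Ptx3 and 61.4% of Lbp. Within the activated FAPs, the 10% of cells with the most Hp held 88.8% of its UMIs, and a single cell held up to 121 of them. The same share was 83.8% for Lcn2, 56.4% for Lbp, 55.3% for Ptx3 and 55.3% for Serpina3n. At day 2 the top 10% of FAPs held 83.3% of Hp but 38.3% of Serpina3n, which had a UMI in 76.6% of cells, against 27.3% for Hp. Ptx3 was concentrated before injury as well, with 87.2% of its UMIs in the top 10% of day 0 FAPs, where Lbp had 37.6%.

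To compare shares of cells across depths, every cell was thinned to 1000 UMIs. After thinning Lbp had a UMI in 26.7%, 15.1% and 21.3% of FAPs at days 0, 2 and 5, and in 52.0% of activated FAPs against 15.2% of FAPs at day 7. Serpina3n had a UMI in 1.11%, 19.0% and 3.38% of FAPs at days 0, 2 and 5, and in 37.2% of activated FAPs against 4.10% of FAPs at day 7. For Lcn2 these shares were 0% at day 0, 0.150% at day 2 and 0% at day 5, and 13.9% of activated FAPs (10.5% to 18.0%) against 0.0651% of FAPs at day 7. The exact intervals of the 0 values reach 0.105% at day 0 and 0.445% at day 5. They limit the share of cells with an Lcn2 UMI at this thinned depth, and not the share that expressed it. Without thinning Lcn2 had a UMI in 0.228%, 2.85% and 0.604% of FAPs at days 0, 2 and 5, and in 25.0% of activated FAPs against 0.455% of FAPs at day 7. Hp had a UMI in 0.0284%, 6.45% and 1.09% of FAPs at days 0, 2 and 5, and in 9.66% of activated FAPs against 1.17% of FAPs at day 7. Saa3 had one in 0.0284%, 2.10% and 0.604% at days 0, 2 and 5, and in 4.26% of activated FAPs against 0.651% of FAPs. Ptx3 kept nearly the same share at days 0, 2 and 5 (13.3%, 13.8% and 12.2%), and was in 27.8% of activated FAPs against 2.93% of FAPs at day 7. In the NK/T cells of day 7, which should lack these genes, the thinned share was 0% for Hp, Lcn2, Saa3 and Ptx3. That allows up to 0.971% of cells with a UMI at that depth. The share was 0.265% for Serpina3n and 0.529% for Lbp. Without thinning, at a median of 3946.5 UMIs, Hp had a UMI in 0.529% and Ptx3 in 0.265% of these 378 cells, and Lcn2 and Saa3 had none. Thinned cells under the "B cells" label of day 2 had Hp in 1.18% and Serpina3n in 1.18%, and the B and NK cells of day 5 had Lbp in 1.37% and Ptx3 in 1.71%. The endothelial cells of day 0 had Lbp in 3.31% and Ptx3 in 2.94% of thinned cells. The thinned shares of Hp, Lcn2 and Saa3 in day 5 FAPs lie within the exact interval of the B and NK cells of that day (0% to 1.25%). Those of Lcn2 and Saa3 in day 7 FAPs lie within that of the NK/T cells (0% to 0.971%). In day 2 FAPs the shares of Lcn2 (0.150%) and Saa3 (2.10%) lie within that of the "B cells" label of day 2 (0% to 2.16%). At the thinned depth these shares are thus not separated from background. The "B cells" labels of days 2 and 5 did not match their markers, as given above, and held macrophage and dendritic cell markers. Of the 293 background cells of day 5, 29 carried that label. Without thinning, Hp had a UMI in 2.90% of day 5 FAPs (1.87% to 4.28%), against 0% of the B and NK cells (0% to 1.25%). The median depths there were 2785 and 1597 UMIs. Single FAPs held up to 18 Saa3 UMIs at day 5 and 51 at day 7, where the B, NK and NK/T cells held 0.

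Several of the 6 genes were often found in the same activated FAP. After thinning, at least 3 of them had a UMI in 71 of 352 activated FAPs (20.2%, 16.1% to 24.7%), against 2 of 1537 FAPs at day 7 (0.130%). Each of the 6 alone also had a UMI in a larger share of thinned activated FAPs than of day 7 FAPs, as given above. All 6 had one in 2 of the 352 activated FAPs (0.568%), and none had one in 101 (28.7%). The counts were 1 of 3516 FAPs at day 0, 14 of 667 at day 2 and 5 of 828 at day 5. Without thinning the shares were 1.71%, 46.3% and 5.07% at days 0, 2 and 5. They were 42.9% of activated FAPs against 5.40% of FAPs at day 7. The FAPs of day 2 were the deepest, at a median of 12321 UMIs a cell. Thinned, their share was 2.10% (1.15% to 3.50%), against 0.0284% (0.000720% to 0.158%) at day 0. In activated FAPs all 15 pairs of genes were found together in more thinned cells than the product of their shares gives. Lcn2 with Serpina3n was in 36 cells against 18.2, and Hp with Lcn2 in 10 against 4.73. Other pairs lay closer to the product, such as Lcn2 with Ptx3 in 16 against 13.6, Serpina3n with Ptx3 in 40 against 36.5 and Lbp with Ptx3 in 56 against 50.9. Pearson correlations of the authors' log values across these 352 cells of 1 library ran from 0.15 (Saa3 with Ptx3) to 0.63 (Serpina3n with Lbp), with a median of 0.21. In the FAPs of days 2, 5 and 7 the medians were 0.14, 0.10 and 0.05. In these labels 9, 5 and 10 of the 15 pairs were found together in more thinned cells than the product gives. At day 0 there were 2 such pairs. Many of the products in these FAP labels were under 1 cell.

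**Figure D2:**
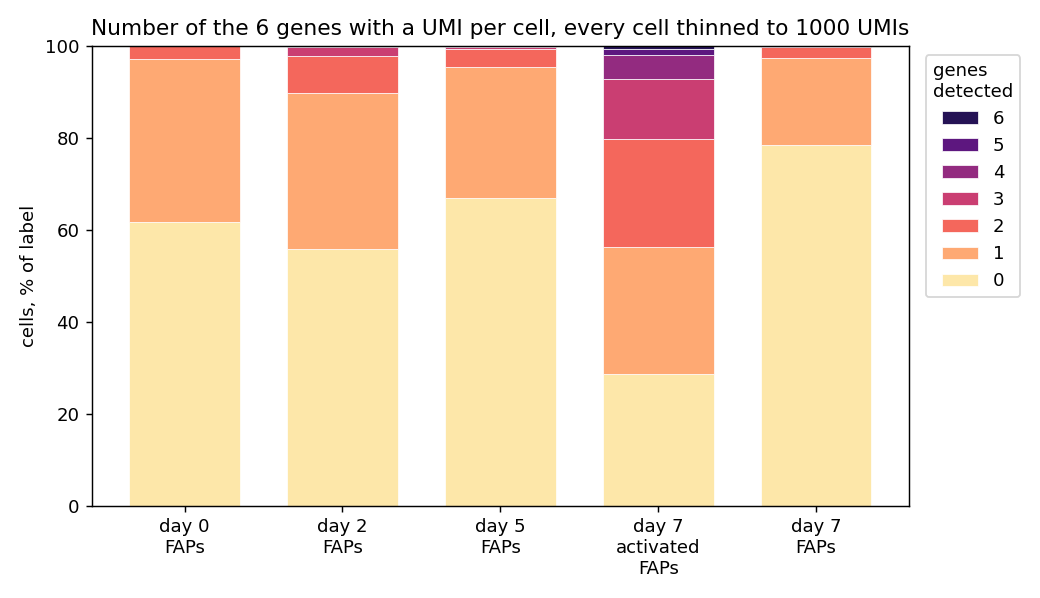
Share of cells, in % of each FAP label, with a UMI for 0 to 6 of the genes after every cell was thinned to 1000 UMIs. The bar of activated FAPs of day 7 has 20.2% of its cells at 3 or more genes, against 0.130% in the FAPs beside it.

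Among labels of at least 50 cells, a FAP label had the highest level for 6 of 6 genes at days 2, 5 and 7. Of all genes with at least 20 UMIs in the library, 22.1%, 21.8% and 16.6% were highest in a FAP label. At day 7 that label was the activated FAPs for all 6, where 6.84% of genes were highest in them. At day 0 a FAP label was highest for 2 of 6, Lbp and Ptx3, where 8.78% of genes were highest in one. The 6 genes were counted without the minimum of 20 UMIs. Lcn2 had 8 UMIs in the day 5 library and Saa3 had 5 in that of day 0. At day 2 the label next below FAPs held 4.28 cpm of Serpina3n ("B cells", against 231 cpm in FAPs) and 5.74 cpm of Ptx3 (muscle stem cells and progenitors, against 226 cpm in FAPs). It held 9.32 cpm of Hp and 4.98 cpm of Saa3 in macrophages/APCs and 21.0 cpm of Lbp in endothelial cells. For Lcn2 the day 2 intervals overlapped, with 3.04 cpm in FAPs (2.02 to 4.39) and 0.574 cpm in muscle stem cells and progenitors (0.0145 to 3.20). At day 5 the Lcn2 intervals overlapped as well, with 2.06 cpm in FAPs (0.755 to 4.48) and 1.48 cpm in anti-inflammatory macrophages (0.179 to 5.33). The day 5 FAP intervals of Hp (13.0 to 23.0 cpm) and Saa3 (14.5 to 24.9 cpm) overlapped the limits of small labels without a UMI. These limits were 21.4 cpm in 100 endothelial cells and 24.2 cpm in 62 mature muscle cells. FAP labels were 67.9%, 13.6%, 38.3% and 33.3% of labelled cells at days 0, 2, 5 and 7, and held 94.0%, 86.5%, 96.1% and 96.0% of the Lbp UMIs of those libraries.

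**Figure D3:**
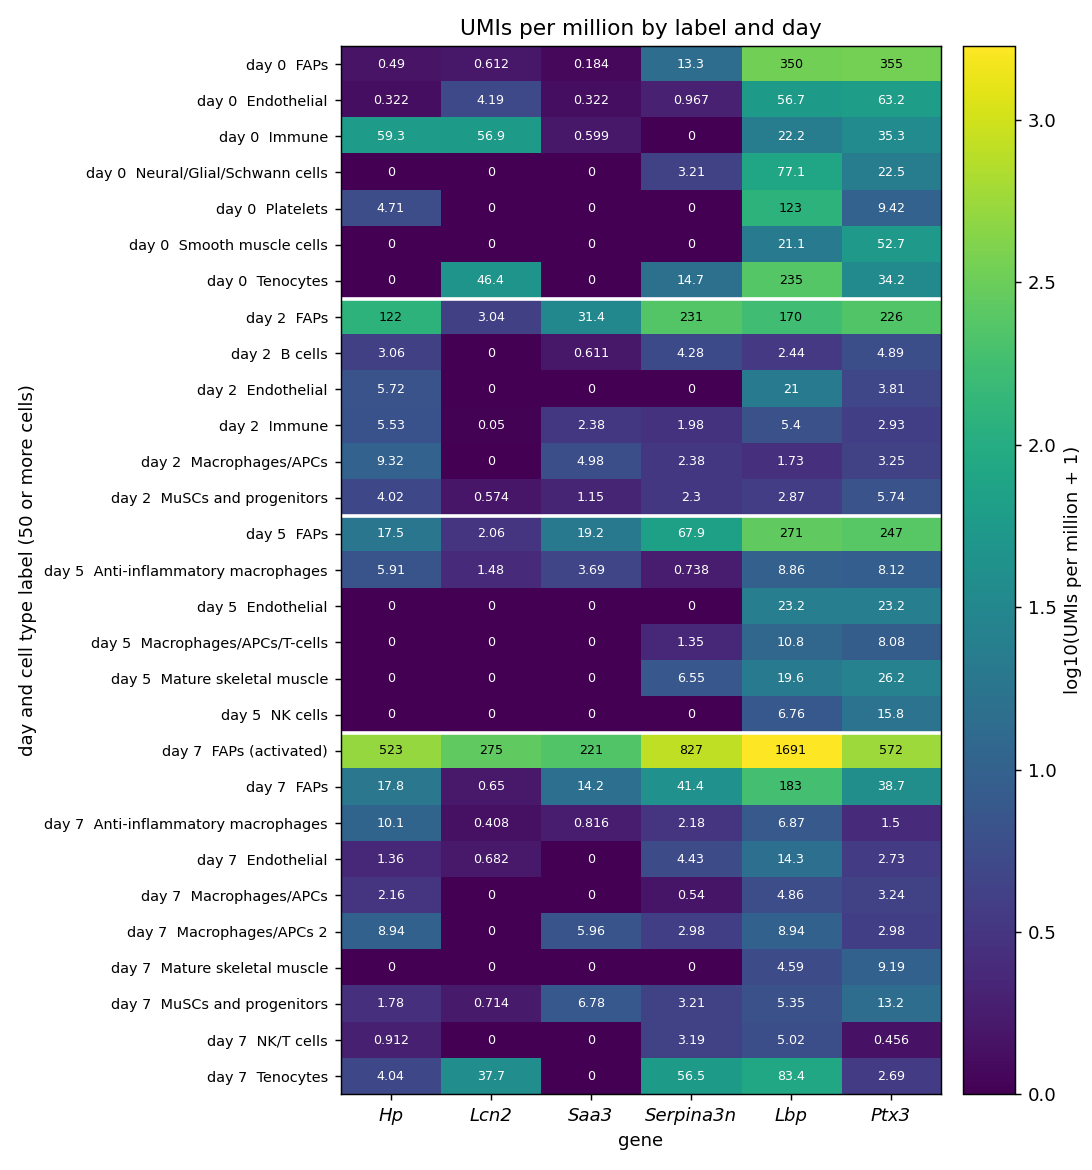
Level of the 6 genes in every cell type label with at least 50 cells, by day, in cpm; colour is log10(cpm + 1) and the numbers are the levels themselves. The brightest row is the activated FAPs of day 7, and at day 0 Hp is bright in immune cells and Lcn2 in immune cells and tenocytes.

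Before injury Hp was highest in immune cells, with 59.3 cpm (48.2 to 72.2). Lcn2 stood at 56.9 cpm (46.0 to 69.6) under that label, where 1 cell held 56 of its 95 UMIs, and at 46.4 cpm (27.9 to 72.5) in tenocytes, so the order of these labels for Lcn2 is not settled. Of the 297 immune cells, 10 had at least 1% of their UMIs from neutrophil markers, and no cell lay near that limit. These 10 cells held 88 of the 99 Hp UMIs and 95 of the 95 Lcn2 UMIs of the label. The same 10 cells held 4 of 37 Lbp UMIs and 0 of 59 Ptx3 UMIs. Immune cells of day 2 had 2 Lcn2 UMIs in 3405 cells.

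Tenocytes, the tendon fibroblasts, had Lcn2 at both days on which they were labelled. They held 37.7 cpm at day 7 (25.0 to 54.4, in 11 of 88 cells) and 46.4 cpm at day 0 (27.9 to 72.5, in 12 of 70 cells), a log2 ratio of -0.30 (-1.19 to 0.62). Serpina3n in tenocytes was higher, with 56.5 cpm at day 7 (40.7 to 76.4) against 14.7 cpm at day 0 (5.38 to 31.9), and Lbp was lower, with 83.4 cpm (63.9 to 107) against 235 cpm (190.0 to 286). Of the 3 genes with enough UMIs in tenocytes 1 was thus higher and 1 lower, where 12.9% and 7.8% of 5733 genes were. Saa3 had no UMI in tenocytes of either day, which allows up to 9.01 cpm at day 0 and 4.96 cpm at day 7.

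Endothelial cells had Lbp and Ptx3 at day 0, with 56.7 cpm (48.6 to 65.7) and 63.2 cpm (54.6 to 72.7). Lbp was 21.0, 23.2 and 14.3 cpm in endothelial cells of days 2, 5 and 7, and Ptx3 was 3.81, 23.2 and 2.73 cpm. Both genes, the 2 with enough UMIs, were lower than at day 0 on each of the 3 days, where 19.7%, 15.6% and 10% of genes were lower and 6.58%, 13.8% and 7.08% higher. At day 5 the Lbp ratio rested on 4 UMIs and its interval included 0 (-1.29, -3.18 to 0.09). In the same endothelial labels the FAP markers summed to 10632 cpm at day 0, and to 2499, 2468 and 3046 cpm at days 2, 5 and 7, so they were lower after injury as well. The macrophage markers summed to 80.2, 8664, 203 and 2750.4 cpm at days 0, 2, 5 and 7. FAPs were 67.9% of cells at day 0, and how much of these endothelial counts was RNA from FAPs was not tested.

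Some macrophage labels held more Hp relative to Lbp than the FAPs of their library. In anti-inflammatory macrophages of day 7 there were 148 Hp UMIs and 101 Lbp UMIs, so Hp was 59.4% of the sum (53.1% to 65.6%). In the same library it was 23.6% (22.4% to 24.8%) in activated FAPs and 8.87% (7.78% to 10.1%) in FAPs. The macrophages/APCs of day 2 had 43 Hp and 8 Lbp UMIs, 84.3% (71.4% to 93.0%), against 41.8% in FAPs of that library. Muscle stem cells and progenitors of day 2 had 7 Hp and 5 Lbp UMIs (58.3%, 27.7% to 84.8%) and "B cells" 5 and 4 (55.6%, 21.2% to 86.3%), and immune cells had 50.6% (45.8% to 55.4%). At day 5 it was 40% (19.1% to 63.9%) in anti-inflammatory macrophages, from 8 Hp UMIs in 5 cells, against 6.06% in FAPs. Neutrophil markers summed to 648 cpm under that macrophage label and to 23.3 cpm in those FAPs, and their part in it was not tested. The macrophages/APCs/T-cells of day 5 had 0 Hp and 8 Lbp UMIs. Their NK and T markers summed to 2640 cpm and their macrophage markers to 284 cpm. The macrophages/APCs of day 7 had 4 Hp and 9 Lbp UMIs, 30.8% (9.09% to 61.4%). Up to 15 Hp UMIs were found in 1 anti-inflammatory macrophage of day 7. Muscle stem cells and progenitors of day 7 held 19 Saa3 UMIs, 15 of them in 1 cell, and 37 Ptx3 UMIs, 20 of them in 1 cell. Mature muscle cells had no UMI of Hp, Lcn2 or Saa3 at days 5 and 7. That allows up to 24.2 cpm in the 62 cells of day 5 and 8.47 cpm in the 56 cells of day 7.

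Most other acute-phase genes that could be compared were also higher in activated FAPs than in FAPs at day 7. Of 14 genes of a list of 32 that had enough UMIs, 10 were higher and 1 was lower, where 5.57% and 13.6% of all genes were, with a median log2 ratio of 2.94 against -0.21 for all genes. Lrg1, a leucine-rich glycoprotein of plasma, stood at 193 cpm in activated FAPs against 1.22 cpm in FAPs (7.31, 6.57 to 8.16). Serpina3m, a close relative of Serpina3n, stood at 128 cpm against 1.30 cpm, and was at 0 in day 0 FAPs. The serum amyloids Saa2 and Saa1 were 4.97 and 4.96 higher on the log2 scale. Serpina3g was the lower one, with -1.13 and an interval that included 0.

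**Figure D4:**
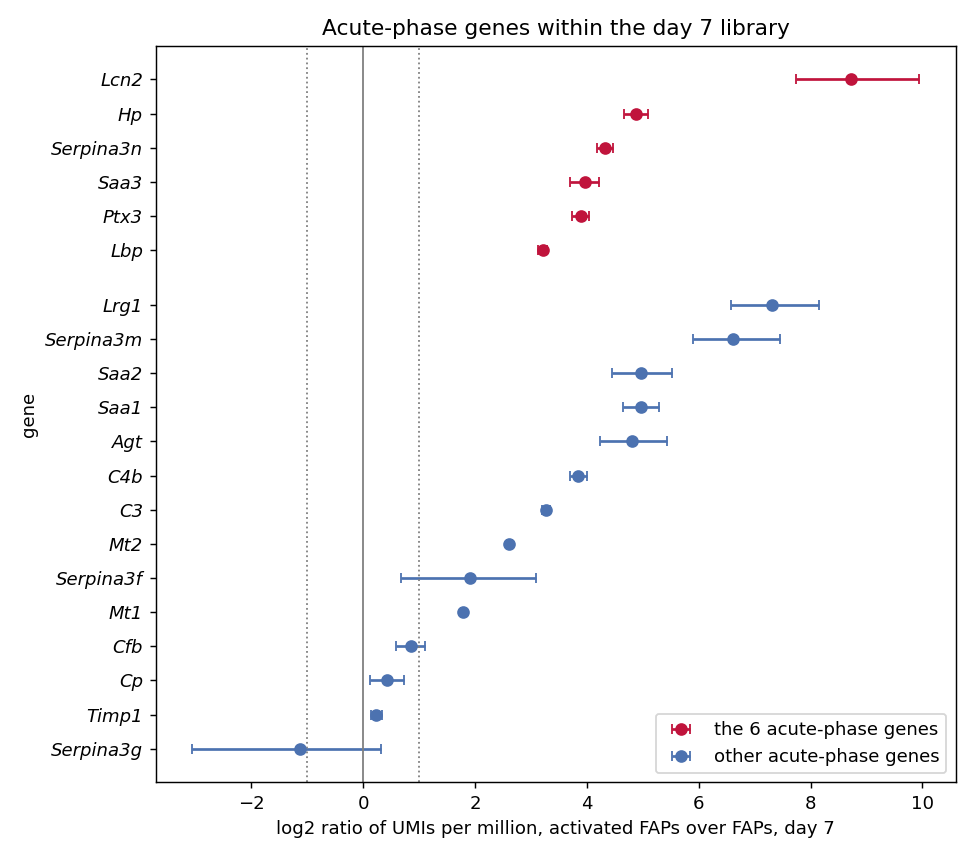
Log2 ratio of cpm in activated FAPs over FAPs within the day 7 library, for the 6 genes (upper block) and 14 other acute-phase genes (lower block); bars are 95% intervals from the binomial split of the counts and dotted lines mark 2-fold. All of the 6 lie at or above 3.21, and Serpina3g is the only gene below -1.

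In day 2 FAPs 5 of 14 other acute-phase genes were higher than at day 0 and 4 lower, where 10.9% and 14.1% of all genes were (median 0.12 against -0.17 for all genes). Timp1, an inhibitor of metalloproteinases, stood at 889.8 cpm at day 2 against 45.2 cpm at day 0 (4.30). Saa1 was lower, with 2.71 cpm at day 2 against 23.1 cpm at day 0 (-3.09, -3.74 to -2.51), while Saa3 was 7.42 higher. The largest in size besides these were Serpina3f, which was at 0 at day 0 and at least 19.5-fold higher, and Saa2 (-3.22). At day 5, 5 of 12 were higher and 0 lower, where 10.2% and 10.3% of all genes were. In day 7 FAPs 3 of 13 were higher and 4 lower, C3 (-2.38) and Mt2 (-2.10) among them, where 10.5% and 11.4% of all genes were. In activated FAPs 7 of 13 were higher than in day 0 FAPs and 0 were lower, where 5.14% and 15.1% of all genes were.

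Among signals and regulators of the acute-phase response, the interleukin 6 and interleukin 1 receptors and Il6 were higher in activated FAPs than in FAPs at day 7. Of 21 such genes with enough UMIs, 6 were higher in activated FAPs than in FAPs at day 7 and 2 were lower, where 5.57% and 13.6% of all genes were, with a median log2 ratio of 0.43. The interleukin 6 receptor Il6ra had 34.6 cpm against 7.31 cpm (2.24), Il6 itself 299 cpm against 74.7 cpm (2.00), the NF-kB inhibitor Nfkbia 729 cpm against 199 cpm (1.88), and the interleukin 1 receptor Il1r1 111 cpm against 36.1 cpm (1.62). The lower ones were the receptor gene Lifr, with 27.9 cpm against 76.9 cpm (-1.46), and Osm, whose interval included 0 (-1.26, -3.60 to 0.38). Against day 0 FAPs, 3 of 20 were higher in activated FAPs and 1 was lower, where 5.14% and 15.1% of all genes were. Il1r1 was one of the 3 (1.45), while Il6ra at 34.6 cpm against 31.8 cpm (0.12), Il6 at 299 cpm against 182 cpm (0.72) and Nfkbia at 729 cpm against 835 cpm (-0.19) were under 2-fold. At day 2, 5 of 21 were higher and 5 lower, where 10.9% and 14.1% of all genes were, with Il11 higher (3.41) and the transcription factor gene Cebpb lower (-2.05). At day 5, 3 of 20 were higher and 2 lower (10.2% and 10.3% of all genes), and in day 7 FAPs 3 of 21 were higher and 6 lower (10.5% and 11.4% of all genes). Il1b, which is a macrophage product, was higher than at day 0 in all 4 later FAP groups (2.80 to 3.17), where macrophage markers were higher as well, and their part in it was not tested.

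Genes for receptors and partners of the 6 proteins were called in both directions. Within day 7, 1 of 10 was higher in activated FAPs and 3 were lower, where 5.57% and 13.6% of all genes were. Tnfaip6, which encodes the partner of pentraxin 3, was the higher one, with 1019 cpm in activated FAPs against 346 cpm in FAPs (1.56). At day 2, 3 of 11 were higher than at day 0 and 2 lower, where 10.9% and 14.1% of all genes were, with Tnfaip6 at 234 cpm against 1284 cpm (-2.46). At day 5, 4 of 10 were higher and 1 lower (10.2% and 10.3% of all genes). In day 7 FAPs 3 of 11 were higher and 1 lower (10.5% and 11.4%), and in activated FAPs against day 0 1 of 9 was higher and 1 lower (5.14% and 15.1%). The macrophage gene C1qa was the 1 in activated FAPs (5.15), beside the macrophage markers given above.

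Over the 29 label and day groups of at least 50 cells, the gene most like each member was taken as the one with the highest Pearson correlation of log2(cpm + 20), among 12249 genes with at least 200 UMIs. Hp was most like Gldc (0.91), then Saa3 (0.91) and Serpina3n (0.85), and Saa3 most like Gldc (0.92) and Figf (0.91). Lcn2 was most like Serpina3m (0.81), Anxa8 (0.80) and Saa2 (0.78), and without the activated FAPs these were 0.43, 0.42 and -0.11. Serpina3n was most like Sned1 (0.94). Lbp was most like Il33 (0.93), which encodes an alarmin, and Ptx3 most like Scara5 (0.96), Adgrd1 (0.95) and Cd248 (0.95), and without the activated FAPs these 4 values were 0.92, 0.95, 0.93 and 0.93. The groups of a day share 1 library, so these correlations are descriptions of 4 libraries. Among the 6 genes the 15 correlations ran from 0.46 to 0.91, and from -0.10 to 0.81 without the activated FAPs.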

How the data were processed

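Live cells of the tibialis anterior were sequenced with 10x 3' v2 libraries, per the labels' protocols, with a pair of runs joined at day 0. Cell Ranger 2, Seurat 2.3.4, R 3.6.2 and mm10 are named in the submitters' processing notes, without roles. The authors deposited UMI counts per gene and barcode, natural log values (ln(1 + 10000 × count / total of the cell), which the counts gave to within 6.22e-15), and cell labels with a mitochondrial fraction for each cell; 16 other metadata columns were not used. Barcodes without a label (9 to 21 per library) were left out. Counts were summed per label and day with numpy 2.4.6 and scipy 1.17.1 and given per 1000000 UMIs (cpm). Intervals are exact (Poisson for levels, Clopper-Pearson for shares and ratios, 95%) and cover counting error only. A count of 0 was set to a floor of 3 UMIs per group for a bound. Thinning to 1000 UMIs used seed 1, and 1 of the cells was shallower. No doublet caller was run. The ratio calculation was tested on simulated counts. Genes named from the lists were those with the largest ratio in size, up to 4 per list and comparison, plus genes whose role bears on the 6. The 6 genes, the lists and the markers were chosen with earlier results of these data known. Of the listed genes, 11 were not found in the tables and were not analysed here: Apcs, Cebpd, Fga, Fgb, Fgg, Lrp2, Orm2, Orm3, Saa4, Serpina1a and Serpina3k. Hp and Lbp had no RefSeq promoter window.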

Additional observations from a re-analysis of the deposited data

Results flagged for a closer look

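Lbp and Ptx3 moved in opposite directions in the FAP labels of day 7 when each was set against day 0 FAPs. For Lbp the log2 ratio was 2.27 in activated FAPs and -0.94 in FAPs. For Ptx3 it was 0.69 in activated FAPs and -3.20 in FAPs. These differences were not tested, since each label comes from 1 library, and both ratios share the same day 0 cells. The Ptx3 ratio of activated FAPs and the Lbp ratio of day 7 FAPs are under 2-fold, so neither gene was called in both directions.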

How the results depend on the processing

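No direction of a called ratio reversed under the alternatives tried. Of 210 values of the 30 member ratios under them, 167 stayed within the interval of the reported value and 43 moved, 27 upward and 16 downward. All 30 ratios stayed within it without FAPs carrying myeloid markers, with a mitochondrial share under 10%, and without the 1% of cells with the most UMIs. Thinned to 1000 UMIs, 2 genes were higher at day 2 and 1 at day 5, where 4 and 3 genes kept 20 UMIs. At day 2 none was then lower, as Lbp, with 1350 UMIs, was -0.91 and so under 2-fold. The lower count at day 2 was also 0 with each cell weighted alike, relative to the median of all genes, and at 4-fold. Without the 1% of cells of a label with the most UMIs of the member, 1 gene was higher at day 5, where 3 genes then kept enough UMIs. Under the same setting the Saa3 ratio of day 7 FAPs to day 0 was 1.41, a lower bound from 6 UMIs. With each cell weighted alike, 4 genes were highest in a FAP label at day 0, since Saa3 and Serpina3n joined Lbp and Ptx3. At day 5 this count was 5 in place of 6 with each cell weighted alike or thinned to 1000 UMIs. It was 4 there without the 1% of cells of a label with the most UMIs of the member. With the FAP labels of day 7 together, Lbp was 0.21 and Lcn2 6.06 relative to day 0 on the log2 scale. No paired analysis was possible because there was 1 library per day. Depth limits Lcn2 in FAPs of days 0, 5 and 7, with 6 to 10 UMIs, and labels under 100 cells.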

Other observations

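Barcodes of the count tables that carry no cell label also held these genes. The 13 such barcodes of day 5 had 16 Hp UMIs, 118 cpm (67.2 to 191), 38 Ptx3 UMIs and 24 Lbp UMIs, and the FAPs of that day had 17.5 cpm of Hp. The 21 of day 2 had 6 Hp UMIs (7.22 cpm) and the 9 of day 7 had 1.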
